A study of Mus musculus with 6 samples.

Results

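The 32 genes described here encode enzymes and regulators of sterol and fatty acid synthesis. They were taken from a list of gene symbols chosen with earlier results of these data known. The symbols were matched to the Entrez identifiers of the deposited tables, which list 36528 identifiers. All 32 members were found and passed the filter on low counts. By role, 7 members act in the mevalonate and isoprenoid steps, 10 in the assembly of the sterol ring, 6 in regulation and transport, 3 in the synthesis of saturated fatty acids and 6 among desaturases and elongases. RNA sequencing of polyadenylated RNA compared mouse microglia, the resident macrophages of the brain, held in vitro in 3 groups of 2 libraries. The groups were untreated wild type, untreated Cop1 KO (labelled Loxp, with no Cre driver or promoter named), and wild type treated with LPS (lipopolysaccharide from the outer membrane of Gram-negative bacteria). COP1 is a ubiquitin ligase that marks other proteins for destruction. The labels give no strain, age, LPS dose or exposure time, nor whether the libraries of a group came from separate cultures or animals. P-values therefore measure the spread between these libraries, which may be technical.

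As background, cells build cholesterol from acetyl-CoA through mevalonate, isoprenoid diphosphates, squalene and lanosterol, and build fatty acids from the same acetyl-CoA through malonyl-CoA. Both routes are switched on by the SREBP transcription factors, membrane proteins that SCAP carries from the endoplasmic reticulum to the Golgi when sterols are scarce and that INSIG proteins hold back when sterols are plentiful. Stearoyl-CoA desaturases and the FADS enzymes put double bonds into acyl chains, and ELOVL enzymes lengthen them. In brain, astrocytes and oligodendrocytes are known as strong producers of sterols and lipids. Macrophages are known to make the oxysterol 25-hydroxycholesterol, which blocks SREBP processing, through the enzyme CH25H.

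Promoter stretches are shown because SREBP proteins are known to act together with the factor NF-Y, which binds the CCAAT box. RefSeq promoter windows on GRCm38.p6, running from 250 bases before to 50 bases after the annotated start, were matched for 25 of the 32 members. Both strands were searched. The letters CCAAT were present in a window of 20 of the 25 members (80%) and of 41.1% of all 27025 genes with such windows. A sterol regulatory element core, written TCACNCCAC, was present in 1 of the 25 (4%), Hmgcs1, and in 1.44% of all these genes. The palindrome TCACGTGA was in none of the 25 and in 1.12% of all these genes. Printed below are the stretch of Hmgcs1 and those of the CCAAT-bearing members with the largest falls under LPS, with the matched letters in capitals (TCACCCCAC for Hmgcs1, CCAAT or its reverse complement ATTGG for the others).
Hmgcs1: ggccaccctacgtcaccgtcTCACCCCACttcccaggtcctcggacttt
Msmo1: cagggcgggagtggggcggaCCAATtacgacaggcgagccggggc
Dhcr7: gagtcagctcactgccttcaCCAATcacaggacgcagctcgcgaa
Insig1: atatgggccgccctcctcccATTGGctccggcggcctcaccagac
Fasn: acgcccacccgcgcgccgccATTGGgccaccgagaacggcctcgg
The Hmgcs1 stretch lies at chr13:119690194-119690242 on the plus strand, that of Dhcr7 at chr7:143830109-143830153 on the plus strand and that of Insig1 at chr5:28071176-28071220 on the plus strand. Those of Msmo1 (chr8:64733609-64733653) and Fasn (chr11:120824613-120824657) are on the minus strand. These matches describe letters and are not binding sites.

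Library totals lay between 20568144 and 22553708 counts. Levels across samples are given in CPM (gene counts relative to library size) scaled with TMM factors, and a change is a log2 fold change from the fit across all 15585 genes tested, called at an adjusted p below 0.05. Cop1 itself stood at 12.7 and 11.5 CPM in untreated wild type, 8.06 and 9.23 in Cop1 KO and 23.4 and 27.2 with LPS. It was lower in the knockout by −0.49 (SE 0.11, adjusted p = 1.6e-04), and this call was lost when the deposited nRPKM values were tested with limma (adjusted p = 0.075 and 0.057 at pseudocounts of 1 and 0.1). The labels do not say which part of Cop1 is deleted, so a count over the whole gene can miss the deletion. The 10 microglia markers summed to 7140 to 7210 CPM in untreated wild type, 11000 to 11100 in Cop1 KO and 4370 to 4460 with LPS. The cultures also held RNA of other brain cells. The 11 astrocyte markers summed to 817 CPM in each untreated wild-type library, 54.1 to 58.8 in Cop1 KO and 907 to 911 with LPS.

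Per unit of gene length the members spanned a wide range in untreated wild type, as the deposited nRPKM values (reads per kilobase, normalised) show. Fdft1, squalene synthase, was highest at a mean of 58.9 nRPKM, followed by Msmo1 at 39.8, Scd2 at 34.6, Acly at 30.6 and Hmgcs1 at 30.3. The Fdft1 level is less certain because this gene shares exonic bases with Ctsb, as described below. Acaca at 0.764 and Idi1 at 0.227 were lowest. The order shifted between groups. Scd2 went from rank 3 of 32 in untreated wild type to rank 22 in Cop1 KO and stayed at rank 3 with LPS, and Fads2 went from rank 9 to rank 28 and to rank 7. Msmo1 kept rank 2 in Cop1 KO and stood at rank 10 with LPS, while Dhcr7 went from rank 14 to rank 11 and to rank 24.

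**Figure D1:**
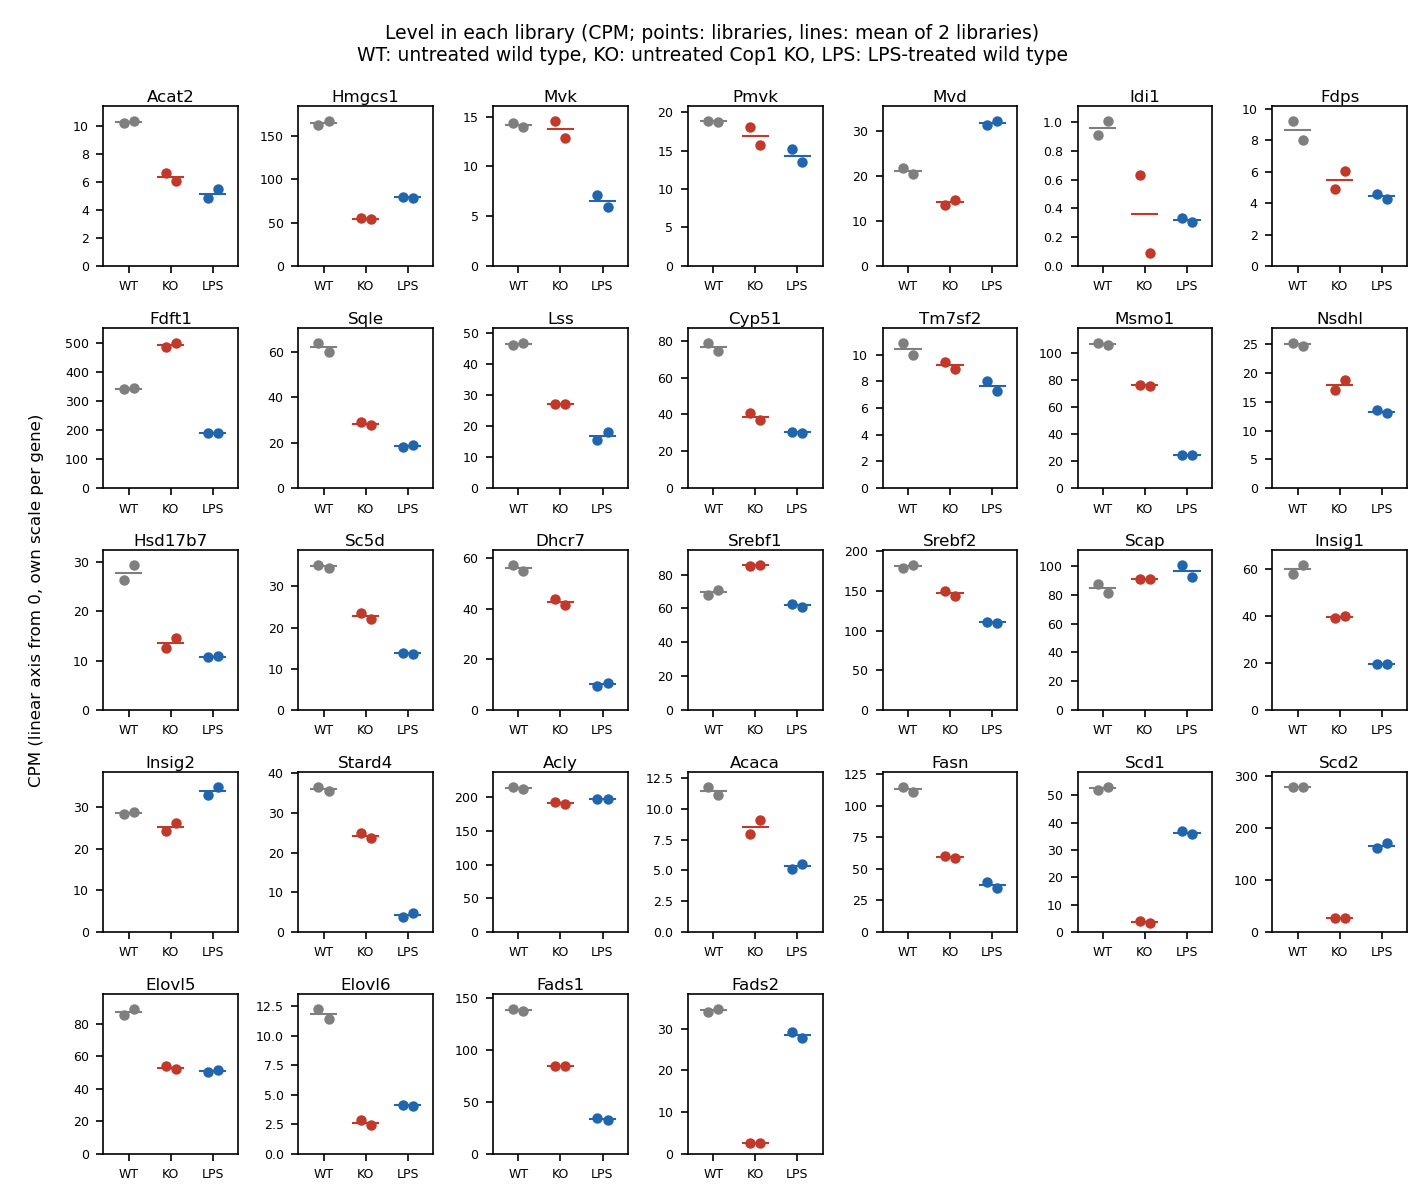
Level of each member in CPM (vertical axes, linear from 0 with a separate scale per gene) in the 2 libraries of untreated wild type (WT), untreated Cop1 KO (KO) and LPS-treated wild type (LPS), with lines at group means. Replicates lie close together for most members, Idi1 in Cop1 KO being an exception at 0.63 and 0.0883 CPM, and Scd1, Scd2 and Fads2 lie far lower in Cop1 KO than in either other group.

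In Cop1 KO compared with untreated wild type, most members were lower. Of the 32 members 26 fell, 3 rose (Fdft1, Srebf1 and Scap) and 3 did not pass the test (Mvk, Pmvk and Tm7sf2). Among all genes tested, 30.3% were called lower and 28.1% higher, 58.4% in either direction. The members had a median log2 fold change of −0.61, against −0.01 for all genes. The largest falls were in the desaturases Scd1, Fads2 and Scd2, at 14.9-fold, 13.7-fold and 10.7-fold, and 8 members fell by at least 2-fold, a size reached by 14.5% of all genes tested. Folds of low genes were smaller on log2(nRPKM + 1), where the added 1 compresses them: Scd1 stood at −2.44 there, Fads2 at −2.88 and Elovl6 at −0.80, all still called. Idi1, 1 of the 8, stood at −0.60 without Cop1 KO replicate 2 and was then not called. The split of calls over all genes depended on scaling: the upward share was 48.1% with TMM, 58.4% under median-of-ratios scaling, 24.4% for library size alone and 63.6% on log2(nRPKM + 1). The members' median lay 0.60 below the median of all genes under each of the 3 count scalings. These shift every gene of a comparison alike, so they could not change that distance. On log2(nRPKM + 1) and log2(nRPKM + 0.1) the members' median minus that of all genes was −0.47 and −0.59. Of the 26 falls 22 were called under all 13 alternatives tried, the others being Acaca, Acly, Idi1 and Insig2, and of the 3 rises only Fdft1 was. These alternatives do not address the exonic bases that Fdft1 shares with Ctsb, described below.

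With LPS compared with untreated wild type, nearly every member fell, and of the 5 roles the sterol ring genes had the lowest median (−1.35). Of the 32 members 29 fell and 3 rose (Mvd, Scap and Insig2), against 43.4% of all genes called lower and 30.2% called higher (73.7% in either direction). The median of the members was −1.02 and that of all genes −0.18, so the members lay 0.84 below. Under library size alone the medians were −1.59 and −0.74, and the distance of 0.84 could not change because scaling shifts every gene alike. On log2(nRPKM + 1) and log2(nRPKM + 0.1) the members' median minus that of all genes was −0.59 and −0.78. At least 2-fold falls were seen in 16 members, against 18.2% of all genes. The deepest were in Stard4, a sterol carrier, at 8.56-fold, Dhcr7 at 5.53-fold, Msmo1 at 4.37-fold and Fads1 at 4.14-fold. On log2(nRPKM + 1) Stard4 stood at −1.79, Elovl6 at −0.61 and Acaca at −0.34, all still called. Idi1, also among the 16, had 23 and 27 reads in untreated wild type and 6 and 5 with LPS. Upward calls made up 41.1% of all calls with TMM and 19.9% with library size alone. Of the 29 falls 23 were called under all 13 alternatives, the others being Acly, Fads2, Idi1, Pmvk, Srebf1 and Tm7sf2, and none of the 3 rises was called higher with library size alone.

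Cop1 KO and LPS-treated wild type were also compared directly, in the same fit. Of the 32 members 18 were higher in Cop1 KO, 7 were lower and 7 did not pass, against 39.9% of all genes called higher, 39.6% lower and 79.6% in either direction. Those lower in the knockout were Scd1, Scd2, Fads2, Elovl6, Hmgcs1, Mvd and Insig2. The members' median was 0.35 and that of all genes 0.03. Upward calls were 50.2% of all calls with TMM and 64.5% with library size alone. By joint pattern, 14 members were below untreated wild type in both groups and lowest with LPS. Another 5 were below it in both and lowest in Cop1 KO, and 5 were below it in both with no called difference between them. The share of all genes tested with each joint pattern was not determined, so these counts have no background beside them. Both comparisons with untreated wild type use the same control libraries, so their values are set side by side and their likeness is not tested.

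**Figure D2:**
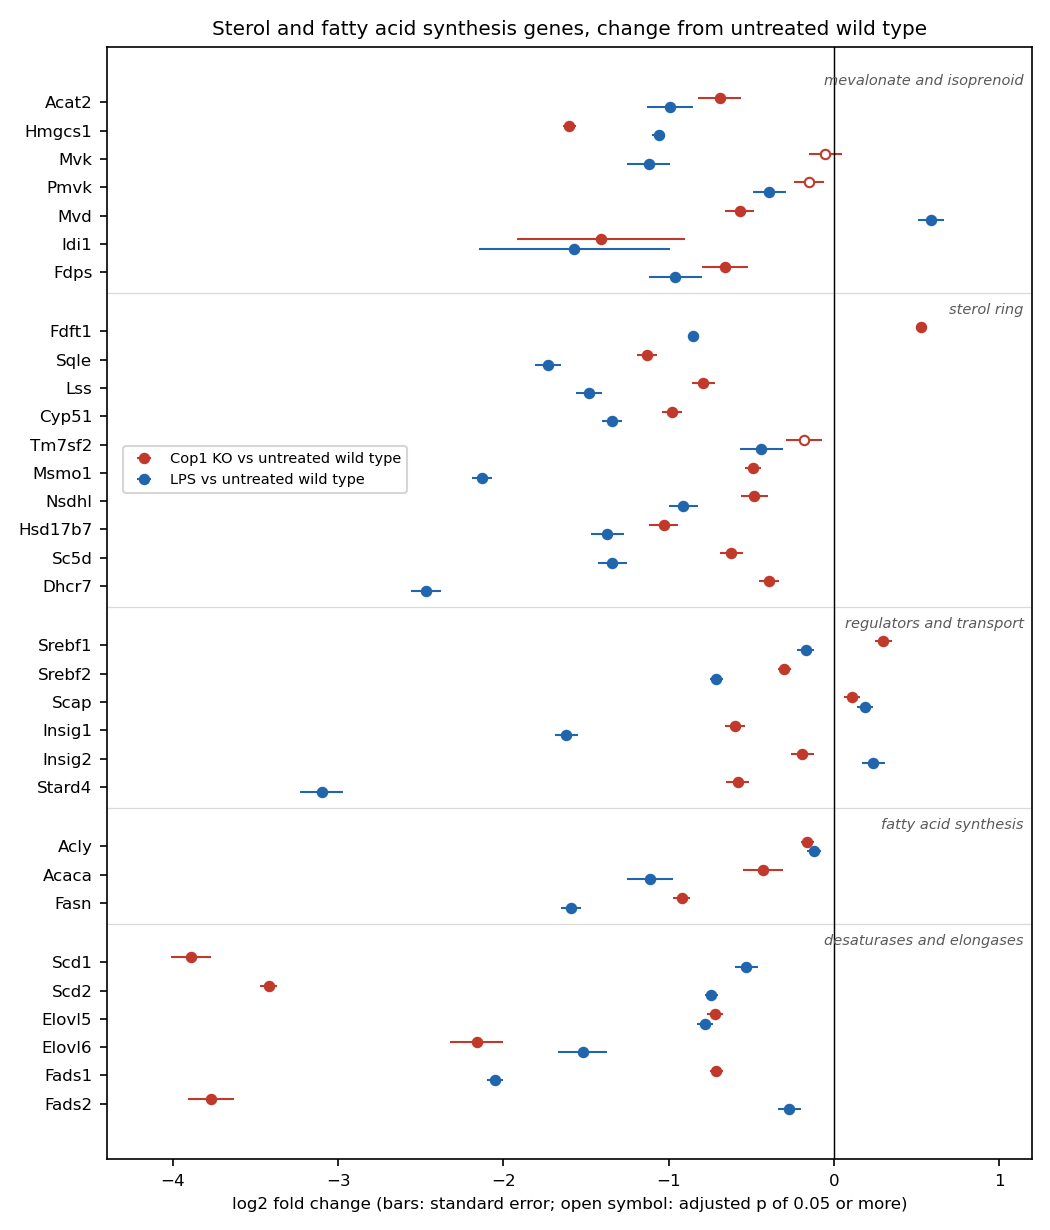
Log2 fold change of each member from untreated wild type (horizontal axis; bars are standard errors, open symbols an adjusted p of 0.05 or more) in Cop1 KO and with LPS, grouped by role. Sterol ring genes lie further left with LPS (Dhcr7 −2.47, Msmo1 −2.13), and Scd1, Scd2 and Fads2 lie further left in Cop1 KO (−3.89, −3.42 and −3.77); Scap lies right of 0 in both with TMM and left of 0 in both with library size alone, where Insig2 with LPS also turns, and Mvk in Cop1 KO and Acly with LPS turn positive with median-of-ratios factors.

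**Figure D3:**
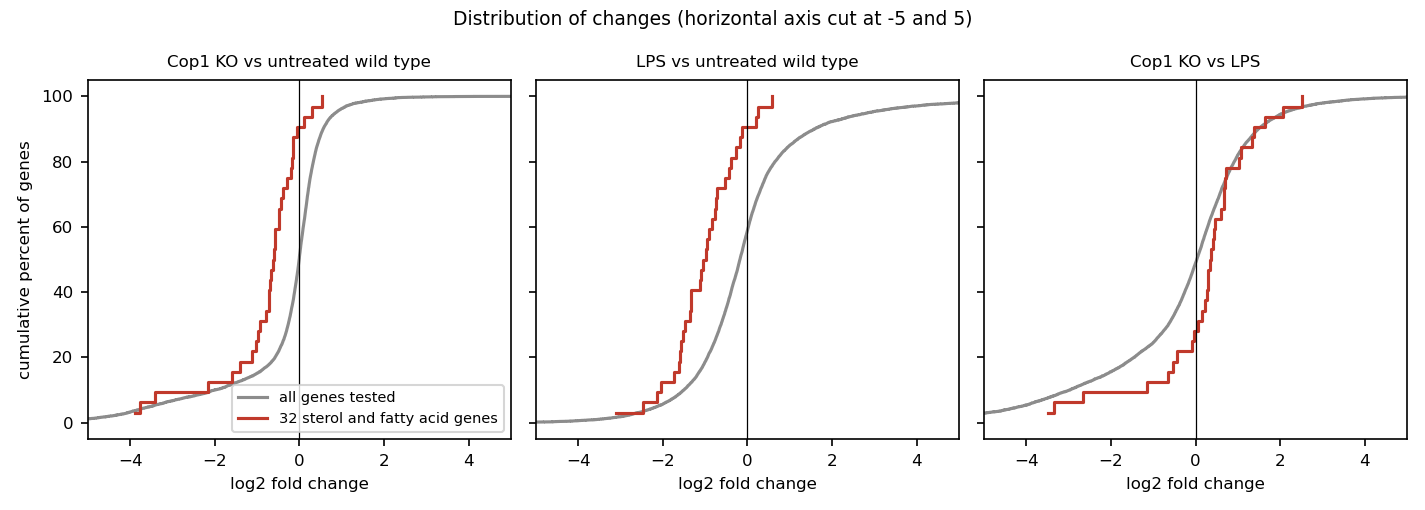
Cumulative percent of genes (vertical axis) by log2 fold change (horizontal axis, cut at −5 and 5) for the 32 members and all 15585 genes tested, in the 3 comparisons. The members' curve is shifted to lower values in both comparisons with untreated wild type (medians −0.61 and −1.02).

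The mevalonate and isoprenoid genes were lower in Cop1 KO at 5 of 7 members (median −0.66) and with LPS at 6 of 7 (median −0.99). Of all genes tested, 30.3% were called lower in Cop1 KO and 43.4% with LPS. Hmgcs1, which joins acetyl-CoA to acetoacetyl-CoA to form HMG-CoA, lies at chr13:119690351-119708260 (GRCm38.p6). It had 163 and 168 CPM in untreated wild type, 55.5 and 53.8 in Cop1 KO and 79.9 and 79.1 with LPS. The groups did not overlap, and the knockout libraries were the lowest. It fell by 1.60 (SE 0.04, adjusted p = 1.1e-35) in Cop1 KO and by 1.06 (SE 0.04, adjusted p = 1.5e-28) with LPS, and Cop1 KO was 0.54 below LPS at −0.54 (SE 0.05, adjusted p = 2e-14). The sign of that difference was opposite to the sign in all 10 sterol ring genes, of which 9 were called. Hmgcs1 shares 12.1% of its exonic bases with Gm48342 on the opposite strand.

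Mvd, which decarboxylates mevalonate diphosphate, had 21.9 and 20.4 CPM in untreated wild type, 13.6 and 14.8 in Cop1 KO and 31.4 and 32.4 with LPS. The knockout libraries were lowest and the LPS libraries highest. It fell by 0.57 (SE 0.09, adjusted p = 7.4e-08) in Cop1 KO and rose by 0.59 (SE 0.08, adjusted p = 2e-09) with LPS, although with library size alone the LPS change was 0.03 and did not pass (adjusted p = 0.75). Mvk, mevalonate kinase, moved with LPS, having 14.4 and 14 CPM in untreated wild type, 14.6 and 12.9 in Cop1 KO and 7.1 and 5.92 with LPS. The knockout libraries lay on either side of the wild-type pair. With LPS its change was −1.12 (SE 0.13, adjusted p = 6.1e-12), and in Cop1 KO it was −0.05 (SE 0.10, adjusted p = 0.7). The direct difference between Cop1 KO and LPS was 1.07 (SE 0.13, adjusted p = 4.3e-11).

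Acat2, a cytosolic thiolase that joins acetyl-CoA units, changed by −0.69 (SE 0.13) in Cop1 KO and −0.99 (SE 0.14) with LPS, and Fdps, which makes farnesyl diphosphate, by −0.66 (SE 0.14) and −0.96 (SE 0.16). The counts of both are less certain because 45.9% and 86.4% of the 50-base stretches of their longest coding transcript also occur in other annotated genes. Pmvk, phosphomevalonate kinase, fell with LPS by 0.39 (SE 0.10, adjusted p = 0.00034) and stood at −0.15 (SE 0.09, adjusted p = 0.14) in Cop1 KO, while DESeq2 did not call the LPS change (adjusted p = 0.11). Idi1, the isopentenyl diphosphate isomerase, had 23 and 27 reads in untreated wild type, 14 and 2 in Cop1 KO and 6 and 5 with LPS. With LPS its change was −1.57 (SE 0.58, adjusted p = 0.0067). That change ran from −2.13 to −0.18 over the alternatives and was not called under all of them. Its change of −1.41 (SE 0.51, adjusted p = 0.0094) in Cop1 KO rested on the library with 2 reads, without which it was −0.60 (adjusted p = 0.35), and also failed without the wild-type replicate 2 (adjusted p = 0.074).

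All 10 sterol ring genes fell with LPS (median −1.35, 7 of them by at least 2-fold). In Cop1 KO 8 of the 10 fell and 1 rose (median −0.55), and 9 of the 10 were higher in Cop1 KO than with LPS. Of all genes tested, 43.4% were called lower with LPS, 18.2% by at least 2-fold. In Cop1 KO 30.3% were called lower and 28.1% higher, and 39.9% were higher in Cop1 KO than with LPS. Sqle, squalene epoxidase, a rate-controlling step of the branch, had 64.1 and 59.9 CPM in untreated wild type, 28.9 and 27.9 in Cop1 KO and 18.2 and 19.1 with LPS. The 3 groups did not overlap. The change was −1.13 (SE 0.06, adjusted p = 6.2e-22) in Cop1 KO and −1.73 (SE 0.08, adjusted p = 2.4e-28) with LPS. Lss, which closes the ring to lanosterol, stood at 46.4 and 47 CPM in untreated wild type, 27 and 27 in Cop1 KO and 15.6 and 18 with LPS, which is a change of −0.79 (SE 0.07) and −1.48 (SE 0.08). Cyp51, the lanosterol demethylase, stood at 79 and 74.6, 40.6 and 37, and 30.5 and 29.9 CPM in the same order of groups, a change of −0.98 (SE 0.06) and −1.34 (SE 0.06). All 3 enzymes thus followed the same order, highest in untreated wild type and lowest with LPS.

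Within the branch the gap between the knockout and LPS was widest at Dhcr7 and Msmo1. Msmo1, a methylsterol monooxygenase at chr8:64718123-64733578, had 108 and 106 CPM in untreated wild type, 76.7 and 75.7 in Cop1 KO and 24.5 and 24.6 with LPS. Dhcr7, the reductase that turns 7-dehydrocholesterol into cholesterol, at chr7:143823167-143848410, had 57.5 and 55 CPM, 43.9 and 41.7, and 9.56 and 10.8. For both genes the knockout libraries lay nearer to untreated wild type than to LPS. Msmo1 changed by −0.49 (SE 0.05, adjusted p = 1.7e-13) in Cop1 KO and by −2.13 (SE 0.06, adjusted p = 8e-37) with LPS, and Dhcr7 by −0.39 (SE 0.06, adjusted p = 1.5e-07) and −2.47 (SE 0.09, adjusted p = 1.1e-32). The direct difference between Cop1 KO and LPS was 1.64 (SE 0.06, adjusted p = 1.2e-30) for Msmo1 and 2.07 (SE 0.09, adjusted p = 2.3e-28) for Dhcr7. Sc5d, the lathosterol desaturase, and Nsdhl and Hsd17b7, which act with Msmo1 in removing methyl groups, also fell in both. Sc5d fell by 0.62 (SE 0.07) in Cop1 KO and by 1.34 (SE 0.09) with LPS. Nsdhl fell by 0.48 (SE 0.08) and by 0.91 (SE 0.09). Hsd17b7 fell by 1.03 (SE 0.09) and by 1.37 (SE 0.10), and its difference between Cop1 KO and LPS (0.34, SE 0.11, adjusted p = 0.0052) had an adjusted p of 0.11 once Cop1 KO replicate 2 was left out. Tm7sf2, a sterol reductase, fell with LPS by 0.44 (SE 0.13, adjusted p = 0.0015) and stood at −0.18 (SE 0.11, adjusted p = 0.18) in Cop1 KO, and DESeq2 did not call the LPS change (adjusted p = 0.14).

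Fdft1, which commits isoprenoids to sterols by making squalene, was the member of this group that rose in Cop1 KO. It had 340 and 343 CPM in untreated wild type, 487 and 501 in Cop1 KO and 190 and 189 with LPS. The knockout libraries were highest and the LPS libraries lowest. The change was 0.53 (SE 0.03, adjusted p = 4.4e-21) in Cop1 KO and −0.85 (SE 0.03, adjusted p = 5.5e-29) with LPS. Fdft1 (chr14:63145150-63181687) shares 18.3% of its exonic bases with the opposite-strand gene Ctsb, which encodes the lysosomal protease cathepsin B. Of the 50-base stretches of its longest coding transcript, 30.7% also occur in other annotated genes, among them Ctsb. The library kit does not keep the strand, so reads from the shared bases cannot be told apart. Ctsb was counted at 17100 and 17200 CPM in untreated wild type, 24600 and 24600 in Cop1 KO and 13300 and 13300 with LPS, a change of 0.52 (SE 0.02) and −0.37 (SE 0.02). Its part in the Fdft1 values was not tested.

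Of the 6 regulators and transport genes 2 rose and 4 fell in each comparison with untreated wild type, with a median of −0.24 in Cop1 KO and −0.44 with LPS. Of all genes tested, 28.1% were called higher and 30.3% lower in Cop1 KO, and 30.2% higher and 43.4% lower with LPS. The share of rises lay near that of all genes. Insig1, which retains SREBP in the endoplasmic reticulum and is itself a known SREBP target, had 57.9 and 61.9 CPM in untreated wild type, 39.1 and 39.9 in Cop1 KO and 19.6 and 19.4 with LPS. It changed by −0.60 (SE 0.06, adjusted p = 9.4e-13) in Cop1 KO and −1.62 (SE 0.07, adjusted p = 2e-27) with LPS. Stard4, which carries cholesterol between membranes, had 36.6 and 35.6 CPM, 24.9 and 23.6, and 3.75 and 4.71 in the same order. Its LPS libraries were the lowest by a wide margin, with a change of −3.10 (SE 0.13, adjusted p = 1.1e-31) against −0.58 (SE 0.07, adjusted p = 1.1e-09) in Cop1 KO. The direct difference was 2.52 (SE 0.14, adjusted p = 3.5e-26). Srebf2, encoding the SREBP that mainly drives sterol genes, stood at 179 and 183 CPM, 150 and 144, and 111 and 110, a change of −0.30 (SE 0.04) in Cop1 KO and −0.71 (SE 0.04) with LPS.

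Srebf1, whose SREBP mainly drives fatty acid genes, had 68 and 70.9 CPM in untreated wild type, 84.9 and 85.8 in Cop1 KO and 62.5 and 61 with LPS. The knockout libraries were the highest. It rose by 0.30 (SE 0.05, adjusted p = 4.2e-07) in Cop1 KO, where library size alone gave 0.10 and no call (adjusted p = 0.054). With LPS it changed by −0.17 (SE 0.05, adjusted p = 0.0031), which was lost with median-of-ratios factors (−0.03, adjusted p = 0.64) and without wild-type untreated replicate 2 (adjusted p = 0.056). Insig2, the partner of Insig1, had 28.5 and 29 CPM, 24.4 and 26.2, and 33.1 and 35. It changed by −0.19 (SE 0.07, adjusted p = 0.023) in Cop1 KO, a call lost with median-of-ratios factors (adjusted p = 0.24), without either untreated wild-type library (adjusted p = 0.07 and 0.13) and without Cop1 KO replicate 1 (adjusted p = 0.22). With LPS it changed by 0.24 (SE 0.07, adjusted p = 0.0024), and library size alone turned this to −0.32. Scap, the SREBP escort, changed by 0.11 (SE 0.05, adjusted p = 0.04) in Cop1 KO and 0.19 (SE 0.05, adjusted p = 0.00034) with LPS, and with library size alone both turned, to −0.08 and −0.37. Its Cop1 KO call was also lost without wild-type untreated replicate 2 (adjusted p = 0.44) or either knockout library (adjusted p = 0.088 for each).

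The 3 genes of saturated fatty acid synthesis fell in both groups by unequal amounts. Of all genes tested, 30.3% were called lower in Cop1 KO and 43.4% with LPS. Fasn, the fatty acid synthase at chr11:120805958-120825166, had 115 and 111 CPM in untreated wild type, 60.5 and 58.9 in Cop1 KO and 39.9 and 35 with LPS. The LPS libraries were lowest. Its change was −0.92 (SE 0.05, adjusted p = 1.1e-22) in Cop1 KO and −1.59 (SE 0.06, adjusted p = 1.2e-31) with LPS. Acaca, the carboxylase that makes malonyl-CoA, changed by −0.43 (SE 0.12, adjusted p = 0.0013) and −1.11 (SE 0.14, adjusted p = 2e-10), the first not called by DESeq2 (adjusted p = 0.11), and 52.6% of its 50-base stretches also occur in Gm5182. Acly, which supplies cytosolic acetyl-CoA from citrate, had 216 and 212 CPM in untreated wild type, 193 and 190 in Cop1 KO and 197 and 197 with LPS. The change was small, at −0.16 (SE 0.04, adjusted p = 8.1e-05) in Cop1 KO and −0.12 (SE 0.04, adjusted p = 0.0022) with LPS, and neither held with median-of-ratios factors (−0.08 and 0.02, adjusted p = 0.062 and 0.64).

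The 6 desaturases and elongases fell in both groups, with a median of −2.79 in Cop1 KO and −0.76 with LPS. Compared directly with LPS, 4 of them were lower in Cop1 KO, 1 was higher and 1 did not pass. Of all genes tested, 30.3% were called lower in Cop1 KO and 43.4% with LPS. In the direct comparison 39.6% of all genes were lower in Cop1 KO and 39.9% higher. Scd1, a stearoyl-CoA desaturase that makes monounsaturated fatty acids, at chr19:44394450-44407709, had 51.8 and 53.1 CPM in untreated wild type, 3.83 and 3.22 in Cop1 KO and 36.8 and 35.8 with LPS. Scd2, its paralogue and a prominent desaturase of brain, at chr19:44293676-44306864, had 279 and 278 CPM, 26.1 and 26, and 162 and 170. Fads2, the desaturase that opens the route to polyunsaturated fatty acids, at chr19:10062765-10101503, had 34.1 and 34.8 CPM, 2.52 and 2.52, and 29.1 and 27.8. In all 3 the knockout libraries stood far below the other groups, and the LPS libraries were between. Scd1 changed by −3.89 (SE 0.12, adjusted p = 1.2e-37) in Cop1 KO and −0.53 (SE 0.07, adjusted p = 3.9e-10) with LPS, and Scd2 by −3.42 (SE 0.05, adjusted p = 1.5e-49) and −0.74 (SE 0.04, adjusted p = 8.8e-25). Fads2 changed by −3.77 (SE 0.14, adjusted p = 2.4e-34) in Cop1 KO. Its LPS change of −0.27 (SE 0.07, adjusted p = 0.00079) was not called with median-of-ratios factors, where it was −0.13. Cop1 KO was below LPS by −3.36 (SE 0.13) for Scd1, −2.67 (SE 0.05) for Scd2 and −3.50 (SE 0.15) for Fads2 (adjusted p = 7.4e-34, 9.2e-45 and 3.5e-32).

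Fads1, the neighbouring desaturase at chr19:10182877-10196874 that acts later in the same route as Fads2, did the opposite between these groups. It had 140 and 138 CPM in untreated wild type, 84.9 and 84.7 in Cop1 KO and 34.5 and 32.6 with LPS. The LPS libraries were lowest, with a change of −2.05 (SE 0.05, adjusted p = 2.9e-38) against −0.71 (SE 0.04, adjusted p = 1.1e-20) in Cop1 KO. Cop1 KO exceeded LPS by 1.34 (SE 0.06, adjusted p = 1.7e-28). Elovl6, which extends palmitate, had 12.3 and 11.4 CPM, 2.84 and 2.43, and 4.14 and 4.1. It fell by 2.16 (SE 0.16) in Cop1 KO and by 1.52 (SE 0.15) with LPS, and the difference of −0.65 (SE 0.19, adjusted p = 0.0023) between them was not called with library size alone (−0.28, adjusted p = 0.18). Elovl5, which elongates polyunsaturated chains, fell by 0.72 (SE 0.05) in Cop1 KO and by 0.78 (SE 0.05) with LPS, and the direct difference of 0.06 (SE 0.06) did not pass (adjusted p = 0.33).

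Markers of other cells moved in the same libraries as these desaturases, though not all in the same direction. In Cop1 KO 10 of 11 astrocyte markers fell and 1 rose (median −3.59), and all 8 neuron markers tested of 10 fell (median −4.06). The neuron markers summed to 62.7 and 63.8 CPM in untreated wild type, 3.74 and 4.81 in Cop1 KO and 58.9 and 60.8 with LPS, with Nefl at 0 in the knockout. The 9 oligodendrocyte lineage markers summed to 233 to 238 CPM, 132 to 133 and 154 to 163, with Mog at 0 in the knockout. Of the 8 tested 6 fell and 1 rose in Cop1 KO (median −2.27). Of the falls 5 were at least 2-fold, among them Olig1 at 14.5-fold and Olig2 at 16.9-fold. The one that rose, Mbp (63.8 and 61.7 CPM in untreated wild type, 89 and 92.8 in Cop1 KO), made up most of the knockout sum. In Cop1 KO, of 5 fibroblast markers tested 4 rose and 1 fell (median 1.26), and of 5 endothelial and mural markers tested 3 rose and 1 fell (median 0.87). The endothelial and mural list holds 7 markers. Cldn5 had 0 counts in every group and Rgs5 had 0 in Cop1 KO, and neither was tested. Of all genes tested, 28.1% were called higher and 30.3% lower in Cop1 KO, 14.5% lower by at least 2-fold, and 43.4% were called lower with LPS. With LPS the astrocyte markers had a median change of 0.12. The 10 cell cycle genes all fell in both groups (median −2.05 in Cop1 KO and −2.35 with LPS). The part of these cells in the desaturase and sterol results was not tested, and in bulk RNA fewer cells of a type and less RNA per cell cannot be told apart.

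**Figure D4:**
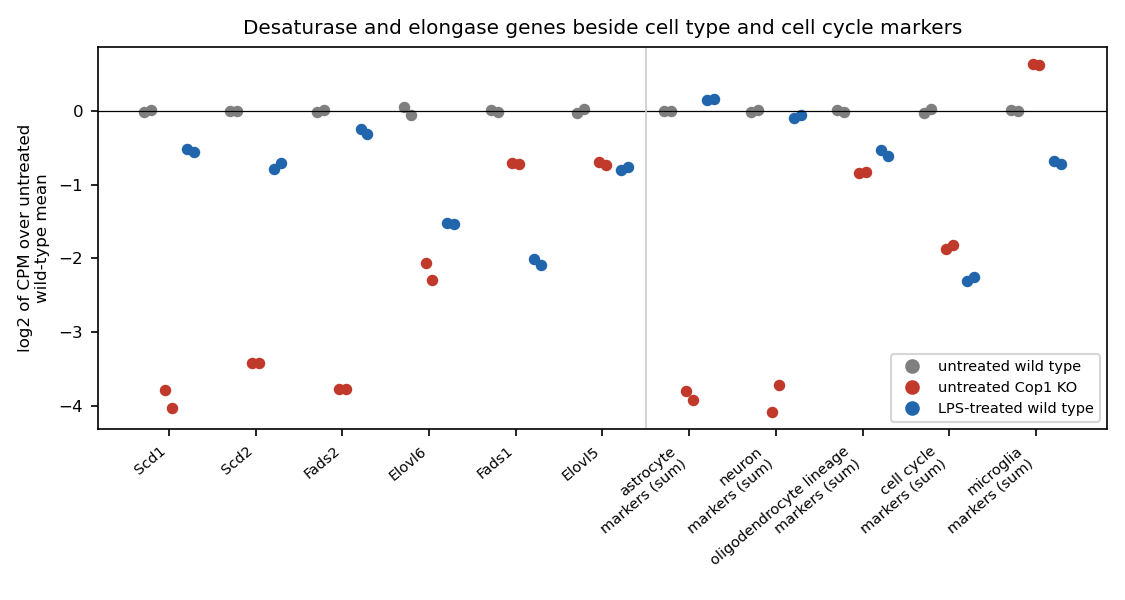
Log2 of CPM over the untreated wild-type mean (vertical axis) in each library for the 6 desaturase and elongase genes and for summed markers of astrocytes, neurons, the oligodendrocyte lineage, the cell cycle and microglia. Scd1, Fads2 and the astrocyte and neuron sums lie near −4 in Cop1 KO, Scd2 lies somewhat higher (fitted change −3.42), and the astrocyte sum lies just above 0 with LPS.

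**Figure D5:**
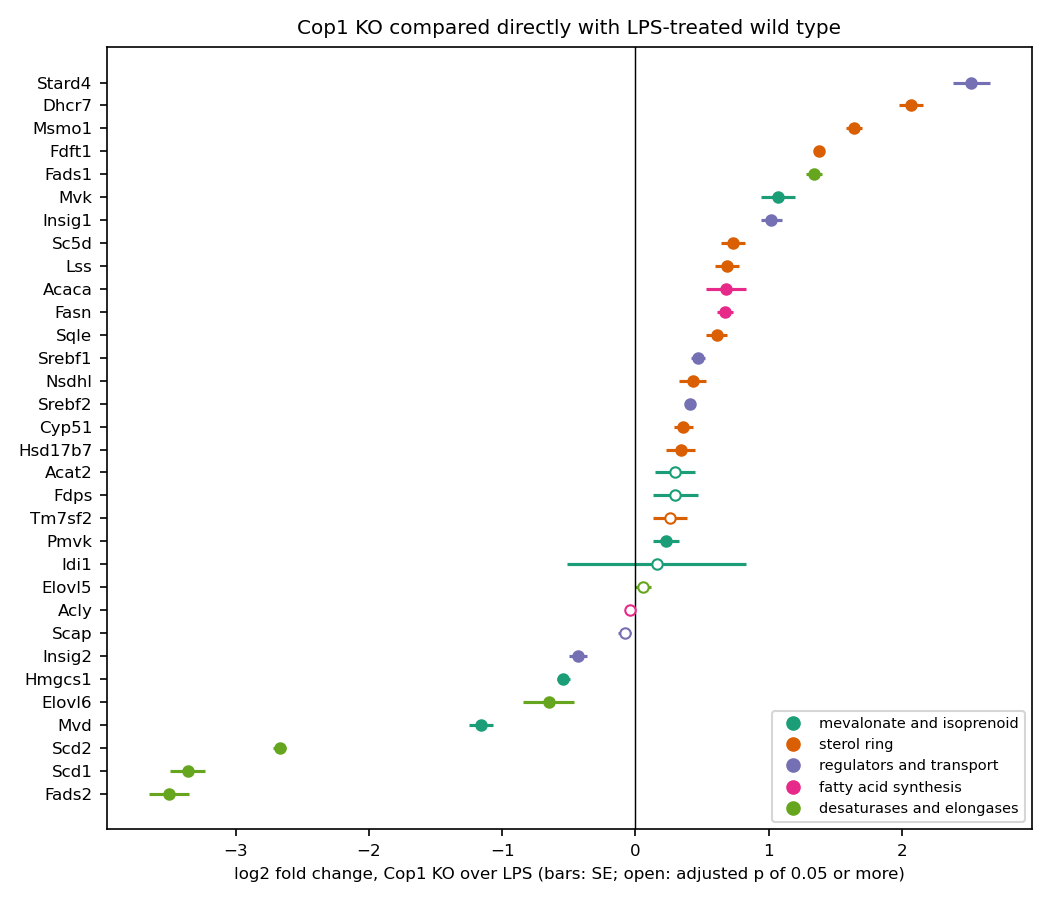
Log2 fold change of Cop1 KO over LPS for each member (horizontal axis; bars are standard errors, open symbols an adjusted p of 0.05 or more), coloured by role. Values run from −3.50 for Fads2 to 2.52 for Stard4, with the sterol ring genes at 0.26 or above; the uncalled values of Scap and Acly turn positive with library size alone, and that of Idi1 turns negative on log2(nRPKM + 0.1) and without Cop1 KO replicate 1.

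Of the pathway around the members, 10 other sterol and isoprenoid genes were tested. In Cop1 KO 3 rose and 5 fell, and with LPS 2 rose and 5 fell. Of all genes tested, 28.1% were called higher and 30.3% lower in Cop1 KO, and 30.2% higher and 43.4% lower with LPS. Several counts in this list and those below lie near these shares, and no list was tested as a set. Acat1, the mitochondrial thiolase, fell by 0.81 (SE 0.08) in Cop1 KO and by 0.55 (SE 0.08) with LPS. Pdss1, which makes the isoprenoid tail of coenzyme Q, went opposite ways, at −0.74 (SE 0.20) and 2.04 (SE 0.15). Of 9 genes that process SREBP or degrade its regulators, 5 rose and 1 fell in Cop1 KO and 6 rose and 3 fell with LPS. Rnf139 and Rnf145, ubiquitin ligases of the endoplasmic reticulum, rose by 1.90 (SE 0.06) and 1.77 (SE 0.05) with LPS. In Cop1 KO Syvn1, another such ligase, rose by 0.26 (SE 0.05; not called with library size alone, adjusted p = 0.21), and Pgrmc1, a membrane haem-binding protein, fell by 0.27 (SE 0.05).

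Of 21 other genes of fatty acid synthesis, elongation and activation 19 were tested. In Cop1 KO 3 rose and 10 fell, and with LPS 4 rose and 8 fell. The shares of all genes tested were 28.1% higher and 30.3% lower in Cop1 KO, and 30.2% higher and 43.4% lower with LPS. Acss2, which makes acetyl-CoA from acetate, fell by 1.19 (SE 0.10) in Cop1 KO, and Me1, the malic enzyme that supplies NADPH, by 0.91 (SE 0.11). Acsl1, an acyl-CoA synthetase, rose by 0.64 (SE 0.05) in Cop1 KO and by 3.04 (SE 0.05) with LPS, whereas its relative Acsl3 fell by 1.81 (SE 0.12) with LPS. Of 12 genes of sterol uptake, transport, esterification and storage, 3 rose and 3 fell in Cop1 KO and 1 rose and 9 fell with LPS. Lpin1, a phosphatidate phosphatase, fell by 0.80 (SE 0.08) in Cop1 KO and by 2.74 (SE 0.12) with LPS. Nceh1 and Lipa, which hydrolyse cholesteryl esters, fell by 2.28 (SE 0.04) and 1.51 (SE 0.03) with LPS. Npc2, which hands on cholesterol in the lysosome, rose by 0.86 (SE 0.03) in Cop1 KO.

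Of 10 oxysterol and LXR pathway genes 9 were tested. In Cop1 KO 6 rose and 0 fell, against 28.1% of all genes called higher and 30.3% lower. With LPS 5 rose and 4 fell, against 30.2% of all genes called higher and 43.4% lower. Ch25h, the 25-hydroxylase of cholesterol, had 16.9 and 17.8 CPM in untreated wild type, 46.2 and 48 in Cop1 KO and 1590 and 1540 with LPS. The LPS libraries stood far above both other groups. It rose by 1.44 (SE 0.06, adjusted p = 3.4e-29) in Cop1 KO and by 6.50 (SE 0.05, adjusted p = 2e-65) with LPS, which is 90.2-fold. Its part in the sterol gene results was not tested. Nr1h3, encoding LXR alpha, rose by 1.88 (SE 0.10) with LPS, and Abcg1, a sterol exporter, by 1.50 (SE 0.04). Among the 4 that fell with LPS, Hsd3b7 had 61 and 58.3 CPM in untreated wild type and 22 and 19.1 with LPS. Abca1, another sterol exporter, had 354 and 356 CPM in untreated wild type and 155 and 163 with LPS. In Cop1 KO Cyp27a1, the mitochondrial sterol 27-hydroxylase, rose by 0.73 (SE 0.06).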

How the data were processed

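Polyadenylated RNA from 6 libraries of mouse microglia in vitro was read single-end at 50 bases with a kit that does not keep the strand, per the labels' protocols. Reads were aligned with GSNAP to GRCm38, per the submitters' processing notes. The sources used here give neither its version nor the annotation. The deposited counts are uniquely aligned reads per gene, per the file headers. The deposited nRPKM values (RPKM times a size factor whose method is not given) are used for levels between genes and as an alternative test. Of 36528 identifiers 31049 were named from RefSeq, and the rest held 1.075% to 1.307% of counts.

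Counts were fitted in R 4.3.3 with edgeR 4.0.16 (TMM factors, filterByExpr, glmQLFit and glmQLFTest, all 6 libraries, 3 residual degrees of freedom, Benjamini-Hochberg over 15585 genes). TMM factors were 1.192 and 1.19 (untreated wild type), 1.042 and 1.042 (Cop1 KO) and 0.806 and 0.806 (LPS). The biological coefficient of variation was 2.7%. Between replicates, chi-square over its degrees of freedom was 1.579, 1.947 and 2.472, above sampling noise. Alternatives used DESeq2 1.42.0 and limma 3.58.1 and are described below. Shared sequence was measured on GENCODE transcripts as exonic overlap and shared 50-base stretches.

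The members and gene lists were chosen with earlier results of these data known. Any member may be named. From each other pathway list, up to 4 called genes per comparison with the largest change and a mean of at least 5 CPM may be named, though not every gene the rule picks is printed. Abca1 is printed outside this rule, beside Abcg1.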

Additional observations from a re-analysis of the deposited data

How the results depend on the processing

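Members kept a lower median than all genes in both comparisons with untreated wild type under all 13 alternatives, although the medians themselves moved. The changes of count scaling could not alter the distance between these medians. In Cop1 KO the members' median was −0.52 with median-of-ratios factors and with DESeq2, −0.80 with library size alone, and −0.40 and −0.47 with limma on log2(nRPKM + 1) and log2(nRPKM + 0.1). With LPS it was −0.88 with median-of-ratios factors, DESeq2 or only the 2 groups compared, −1.59 with library size alone, −1.05 with no filter on low counts, and −0.60 and −0.80 on the nRPKM scales. Between Cop1 KO and LPS it was 0.29 with median-of-ratios factors and DESeq2, 0.72 with library size alone, and 0.21 and 0.30 on the nRPKM scales. Leaving out 1 library at a time gave −0.62 to −0.58, −1.05 to −1.02 and 0.35 to 0.42. With library size alone, 2319 genes were called higher and 7200 lower in Cop1 KO, and 2678 higher and 10770 lower with LPS, while 1 and 0 members were higher. This follows from the scaling itself, which shifts every gene of a comparison by the same amount.

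These changes turned direction. Scap was −0.08 in Cop1 KO, −0.37 with LPS and 0.29 between them, and Insig2 was −0.32 with LPS, all with library size alone, as were Acly between Cop1 KO and LPS (0.33) and Erlin1 in Cop1 KO (−0.01). Acly with LPS was 0.02 with median-of-ratios factors, DESeq2 or only the 2 groups, and 0.04 on both nRPKM scales. Mvk in Cop1 KO was 0.04 with median-of-ratios factors, DESeq2 or without Cop1 KO replicate 2, and 0.07 and 0.08 on the nRPKM scales (−0.14 to 0.04 over libraries left out). Idi1 between Cop1 KO and LPS was −0.04 on log2(nRPKM + 0.1), and −1.78 to 0.98 over libraries left out, negative without Cop1 KO replicate 1. The causes were not tested.

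Between Cop1 KO and LPS, 16 of 18 higher and 5 of 7 lower members were called under all alternatives. Pmvk lost its call without Cop1 KO replicate 1 (adjusted p = 0.26) or LPS replicate 2 (adjusted p = 0.24), and in Cop1 KO it gained one without Cop1 KO replicate 1 (adjusted p = 0.048). No paired analysis was possible because the labels give no replicate numbers. The replicate numbers used here follow the order in which the samples are listed and imply no pairing. Depth limits Idi1 most.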
